A study of Mus musculus with 2 samples.

Results

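The genes described here are 8 mouse lung genes of pulmonary surfactant and of the lamellar body, the organelle in which surfactant is stored. They are the surfactant protein genes Sftpc, Sftpb, Sftpa1 and Sftpd, and Lamp3, Abca3, Slc34a2 and Napsa. They were taken by name, and all 8 were found among the 17790 genes of the deposited table. The cells came from lung adenocarcinoma of C57BL/6 mice: tumours were microdissected and dissociated, and the suspension was parted with CD45 magnetic beads. CD45 marks leukocytes. The CD45-negative fraction gave 1 library of 3957 cells and the CD45-positive fraction 1 library of 11432 cells, 15389 cells in all, made with a droplet 3′ chemistry that counts unique molecular identifiers (UMI). The labels of the cells in both libraries carry the name LucOS, which no source used here explains. The number of mice, the tumour model and its stage, the mice's age and sex, and the way the deposited classes of cells were assigned are likewise not given there. Each cell has 1 of 7 deposited classes: AT2 (alveolar type 2), AT1 (alveolar type 1), Ciliated, Fibroblast, Endothelial, Erythrocyte and Immune. Tumour cells have no class of their own, and the 8 genes may have served to define the AT2 class, so that their height in it is given as a description.

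Surfactant is a film of phospholipid and protein that lowers surface tension in the alveolus and is made by AT2 cells. The hydrophobic proteins SP-B and SP-C are cut out of larger precursors on the way to the lamellar body and are secreted with the lipid, whereas SP-A and SP-D are collectins, soluble proteins that bind carbohydrates of microbes. Alveolar macrophages take up and break down used surfactant, and AT2 cells recycle much of the rest. AT2 cells are also known as a cell of origin of lung adenocarcinoma, and napsin A serves as a marker of this tumour in pathology.

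The promoters are shown because these genes are high in the same cells while differing in the letters before their starts. RefSeq promoter windows of build GRCm38.p6, from 250 bases before to 50 bases after the annotated start, were matched for 5 of the 8 genes. The windows lie at chr6:72304360-72304659 (plus strand) for Sftpb, chr14:41131538-41131837 (plus strand) for Sftpa1, chr16:19706316-19706615 (minus strand) for Lamp3, chr17:24351773-24352072 (plus strand) for Abca3 and chr5:53049103-53049402 (plus strand) for Slc34a2. They are written 5′ to 3′ on the strand of the gene, and capitals mark the letters CTCAAG (a core of the sites of NKX2-1, a lung transcription factor), TGTTTNC (the letters of a forkhead site) or TATAAA (the box of that name), each searched on both strands.
Sftpb: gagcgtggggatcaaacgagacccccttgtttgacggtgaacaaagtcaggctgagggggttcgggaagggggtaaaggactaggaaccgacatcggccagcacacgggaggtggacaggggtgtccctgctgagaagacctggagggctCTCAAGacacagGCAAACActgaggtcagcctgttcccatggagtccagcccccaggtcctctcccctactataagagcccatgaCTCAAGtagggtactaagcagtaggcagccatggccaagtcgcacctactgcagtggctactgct
Sftpa1: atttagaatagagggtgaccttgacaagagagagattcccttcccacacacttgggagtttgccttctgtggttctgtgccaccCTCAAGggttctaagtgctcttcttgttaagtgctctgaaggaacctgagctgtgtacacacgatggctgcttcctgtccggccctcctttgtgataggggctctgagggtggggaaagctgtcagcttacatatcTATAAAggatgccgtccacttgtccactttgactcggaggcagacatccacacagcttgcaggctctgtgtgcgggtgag
Lamp3: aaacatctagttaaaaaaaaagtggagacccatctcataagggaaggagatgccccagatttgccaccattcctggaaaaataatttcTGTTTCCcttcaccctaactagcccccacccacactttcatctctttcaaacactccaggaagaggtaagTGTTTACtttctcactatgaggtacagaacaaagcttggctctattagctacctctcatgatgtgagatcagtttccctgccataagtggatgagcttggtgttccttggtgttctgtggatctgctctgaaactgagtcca
Abca3: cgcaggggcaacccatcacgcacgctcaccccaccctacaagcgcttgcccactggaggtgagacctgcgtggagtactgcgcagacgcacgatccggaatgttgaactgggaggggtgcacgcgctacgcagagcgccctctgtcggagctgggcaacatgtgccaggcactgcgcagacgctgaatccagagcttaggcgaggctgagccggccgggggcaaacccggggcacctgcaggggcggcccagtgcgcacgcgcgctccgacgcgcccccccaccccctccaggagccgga
Slc34a2: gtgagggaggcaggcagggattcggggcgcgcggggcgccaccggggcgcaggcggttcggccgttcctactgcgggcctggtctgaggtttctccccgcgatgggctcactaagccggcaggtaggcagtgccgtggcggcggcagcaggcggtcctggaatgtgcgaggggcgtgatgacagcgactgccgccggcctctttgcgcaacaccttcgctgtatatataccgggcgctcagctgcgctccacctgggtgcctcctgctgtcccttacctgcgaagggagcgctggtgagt
CTCAAG stood 100 and 15 bases before the start of Sftpb and 166 bases before that of Sftpa1. The letters were in 15.9% of all 32851 promoter windows. TGTTTNC lay 88 bases before the Sftpb start, on the reverse strand, and 162 and 92 bases before the Lamp3 start; 20.5% of all windows held it. TATAAA was found in the Sftpa1 window, 30 bases before the start, and in 13.6% of all windows. The windows of Abca3 and Slc34a2 held none of these letters. They were the windows richest in CpG of the 5, with 29 CpG and 69.7% G or C for Abca3 and 30 CpG and 68.7% for Slc34a2, against medians of 7 CpG and 52.7% over all windows. Lamp3 had 0 CpG and 43.7% G or C. A match is a run of letters and not a measured site, and nothing on binding was measured.

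In the GENCODE M21 annotation of GRCm38 all 8 genes are protein-coding. Sftpc lies at chr14:70520949-70524081, and Sftpa1 and Sftpd are neighbours on the same chromosome at chr14:41131782-41136452 and chr14:41172214-41185149. Sftpb lies at chr6:72304610-72314371, Lamp3 at chr16:19653378-19706375, Abca3 at chr17:24351950-24410201, Slc34a2 at chr5:53038081-53071664 and Napsa at chr7:44572380-44586862. The promoter window printed for Slc34a2 lies inside the GENCODE span of that gene, past its first base, so it belongs to another start. Slc34a2 and Napsa have antisense partners, Gm17182 and Gm15396, with 172 and 280 UMI over all cells. Strand use in counting is not stated, so reads of a gene and its antisense partner may have been mixed.

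The CD45-negative library held 40873786 UMI and the CD45-positive library 47477407, with a median of 7710 and 3376 UMI per cell. The CD45-positive library holds more cells than the 6000 that were loaded per channel, and 57 cell barcodes occur in both libraries. With 1 library per fraction no difference could be tested, so every interval below is a 95% interval that covers counting error alone (exact Poisson for levels, Clopper-Pearson for shares, conditional binomial for ratios). A level is the count of a gene over all counts of a group of cells, in CPM, and it is not scaled by gene length because 3′ tags were counted. AT2 was the label of 1677 cells (42.4%) in the CD45-negative and 1324 cells (11.6%) in the CD45-positive library. The 10 other AT2 markers summed to 28432 CPM in AT2 cells of the CD45-negative library, against 2169 CPM in all other classes, and none of them was at 0. The class deposited as AT1 went against its label: its 8 AT1 markers summed to 1813 CPM, against 3797 CPM in the AT2 class, Ager stood at 302 CPM against 1614, and Rtkn2 had a single UMI. Its leading genes were Acsbg1, Lif, Ankrd1, Tnfrsf23 and Prss22. The Ciliated class held club cell markers at 232870.0 CPM beside ciliated markers at 8420.4, and the Fibroblast class held mesothelial markers at 7822 CPM beside fibroblast markers at 4074. Of the fibroblast markers in the Fibroblast class Dcn alone had 3808 CPM, and Pdgfra had 2 UMI.

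Sftpc, which encodes SP-C, was the most abundant of the 8 genes, and by itself it made up 12.2% of all UMI of CD45-negative and 10.3% of all UMI of CD45-positive AT2 cells. Its level in AT2 cells was 121713 CPM (interval 121554 to 121872) in the CD45-negative library and 103076 CPM in the CD45-positive one. The other classes spanned 2997 CPM (Immune) to 11784 CPM (Ciliated) and 1715 CPM (Erythrocyte) to 3776 CPM (AT1) in those libraries. No other class came within 10-fold of AT2 cells. Sftpb, the gene of SP-B, stood at 12563 CPM in AT2 cells of the CD45-negative and 7865 CPM of the CD45-positive library, and was next highest in the class deposited as AT1, at 3465 and 3530.08 CPM. The distance between AT2 and the next class was smallest for this gene in the CD45-positive library (2.23-fold), and 3.63-fold in the CD45-negative one.

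The collectin genes were likewise highest in AT2 cells. Sftpa1, the gene of SP-A, had 22846 CPM in AT2 cells of the CD45-negative and 17865 CPM of the CD45-positive library, and next 3926 and 2132 CPM in the Ciliated class. Sftpd, the gene of SP-D, had 5121 and 4074 CPM in AT2 cells of these libraries. In the Ciliated class and the class deposited as AT1 of the CD45-negative library Sftpd did not differ beyond counting error, at 909 and 869 CPM. In the Endothelial, Erythrocyte and Immune classes it lay between 87.5 and 119 CPM.

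The genes of the organelle and its supply were less abundant in AT2 cells than any of the surfactant protein genes. Slc34a2 encodes a sodium-phosphate transporter of the apical membrane that takes phosphate back from the alveolar fluid, and had 1799 CPM in AT2 cells of the CD45-negative and 1724 CPM of the CD45-positive library. Its other classes had 33.1 to 164 CPM and 20.9 to 55.4 CPM, and its ratio to the next class was the highest of the 8 genes in both libraries (10.98 and 31.1, both over the Ciliated class). Napsa, the gene of the aspartic protease napsin A that helps to process pro-SP-B, had 1098 and 853 CPM in AT2 cells. Lamp3, a membrane glycoprotein of the lamellar body that is also known as DC-LAMP in human mature dendritic cells, had 546 and 400.3 CPM. Abca3, the transporter that moves phospholipid into the lamellar body, was the lowest, with 233 CPM (226 to 240.02) and 213 CPM. Abca3 also stood least above the next class, the Ciliated one, with a ratio of 3.09 in the CD45-negative library and 3.18 in the other, apart from Sftpb in the CD45-positive library.

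**Figure D1:**
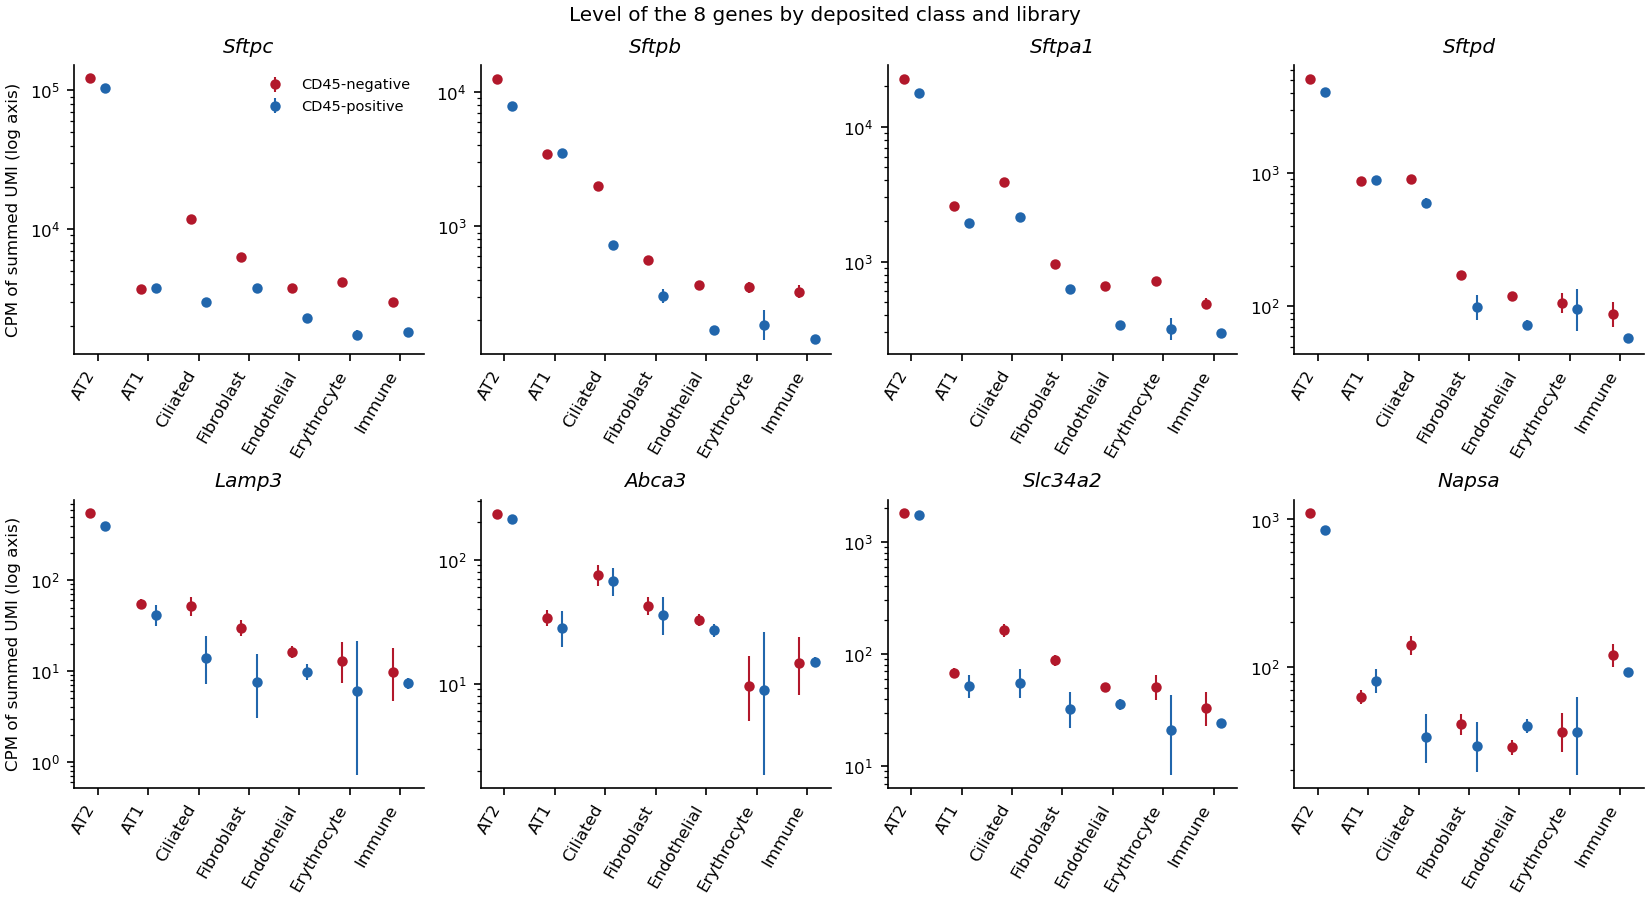
Level of each of the 8 genes (CPM of summed UMI, log axis) in the 7 deposited classes of the CD45-negative (red) and CD45-positive (blue) library; bars are 95% counting intervals. AT2 cells stand highest in all 8 plots, Sftpb and Sftpd come next in the class deposited as AT1 and the Ciliated class, and Napsa has a raised level in the Immune class.

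Set against all other classes pooled, all 8 genes were at least 2-fold higher in AT2 cells of both libraries, and no member was lower. In the CD45-negative library 6.81% of the 12854 genes with at least 50 UMI in the 2 groups together were as much higher, and 10.2% of 13009 genes in the CD45-positive one. The median log2 ratio of the 8 was 4.14 against -0.52 over all genes in the CD45-negative library, and 5.37 against -0.28 in the CD45-positive one. In the CD45-negative library Slc34a2 had the highest ratio, 26.9 (25.5 to 28.3), with Sftpc at 26.3 (26.1 to 26.4), and Abca3 the lowest, 6.64 (6.15 to 7.17). In the CD45-positive library Slc34a2 was again first, at 60.3 (56.8 to 64.1), and Abca3 last, at 10.8 (9.92 to 11.8), with Napsa at 11.1 (10.7 to 11.6). The 8 genes together took 16.6% of the UMI of AT2 cells against 0.778% in the other classes of the CD45-negative library, and 13.6% against 0.298% in the CD45-positive one.

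AT2 cells stood first in all 16 orders of the classes, 1 per gene and library. Below them several neighbours could not be told apart at this depth. For Lamp3 and Slc34a2 the Endothelial, Erythrocyte and Immune classes of the CD45-negative library did not differ beyond counting error from neighbour to neighbour, and for Abca3 the Fibroblast, AT1 and Endothelial classes did not. Sftpa1 was the exception, with every neighbour in that library apart. For Lamp3 in the CD45-positive library no neighbouring classes below AT1 differed beyond counting error, at 5.99 to 13.9 CPM.

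UMI of these genes were found in every class. Droplets hold free RNA, which gives UMI in cells that do not express a gene, and the Endothelial class was set beside AT2 cells as a measure of it. For Abca3 the Endothelial and the Immune class are both given, because in both its counts relative to Sftpc lay above those of AT2 cells. What part of these counts was free RNA was not tested. Without thinning, 100% of AT2 cells and 100% of Endothelial cells of the CD45-negative library had an Sftpc UMI, at median depths of 8143 and 6808 UMI per cell. After each cell was thinned to 1000 UMI the shares were 99.5% of AT2 and 92.7% of Endothelial cells, so the presence of an Sftpc UMI did not mark a cell type here. Thinned Slc34a2 was found in 60.5% of AT2 cells against 4.08% of Endothelial cells (83.4% and 26.1% unthinned), Lamp3 in 38.5% against 1.76% (82.2% and 11.1%), and Napsa in 52.8% against 1.92% (87.0% and 17.9%). Abca3 was found in 21.1% of AT2 against 3.28% of Endothelial cells (67.1% and 22.3%) and 1.85% of Immune cells (12.96%, median depth 7834.5 UMI). The thinned shares were 96.8% against 27.3% for Sftpb, 95.8% against 42.6% for Sftpa1 and 87.9% against 9.45% for Sftpd.

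Counts relative to Sftpc were set beside the ratio of pooled AT2 cells, which is not 1 ratio held by all of them. AT2 cells low in Sftpc, described below, had 26477 Sftpb and 182 Abca3 UMI beside 9670 Sftpc UMI in the CD45-negative library. Whether a ratio unlike the pooled one came from RNA shed by AT2 cells was not tested. AT2 cells of the CD45-negative library had 103 Sftpb UMI per 1000 Sftpc UMI, and the Endothelial class had 97.9 (94.6 to 101), the Fibroblast class 88.5 and the Immune class 109. Slc34a2 likewise had 14.8 per 1000 Sftpc UMI in AT2 cells and 11.03 to 14.0 in the Ciliated, Endothelial, Erythrocyte, Fibroblast and Immune classes. These values lie close to those of AT2 cells. Departures from the pooled AT2 ratio were seen in 3 places: in the class deposited as AT1, in the Ciliated class, and for Napsa and Abca3. The class deposited as AT1 had 933 (914 to 952) Sftpb, 696 Sftpa1 and 234 Sftpd UMI per 1000 Sftpc UMI in the CD45-negative library, and 935 Sftpb and 235 Sftpd in the CD45-positive one. Sftpa1 had 188 UMI per 1000 Sftpc UMI in AT2 cells of the CD45-negative library and 333 in the Ciliated class. Abca3 had 1.91 (1.86 to 1.97) per 1000 Sftpc UMI in AT2 cells but 8.71 (7.79 to 9.72) in the Endothelial class, 4.87 (2.72 to 8.04) in the Immune class, 6.70 in the Fibroblast class and 6.40 in the Ciliated class. Napsa had 9.02 per 1000 Sftpc UMI in AT2 cells and 39.9 (33.1 to 47.8) in the Immune class.

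**Figure D2:**
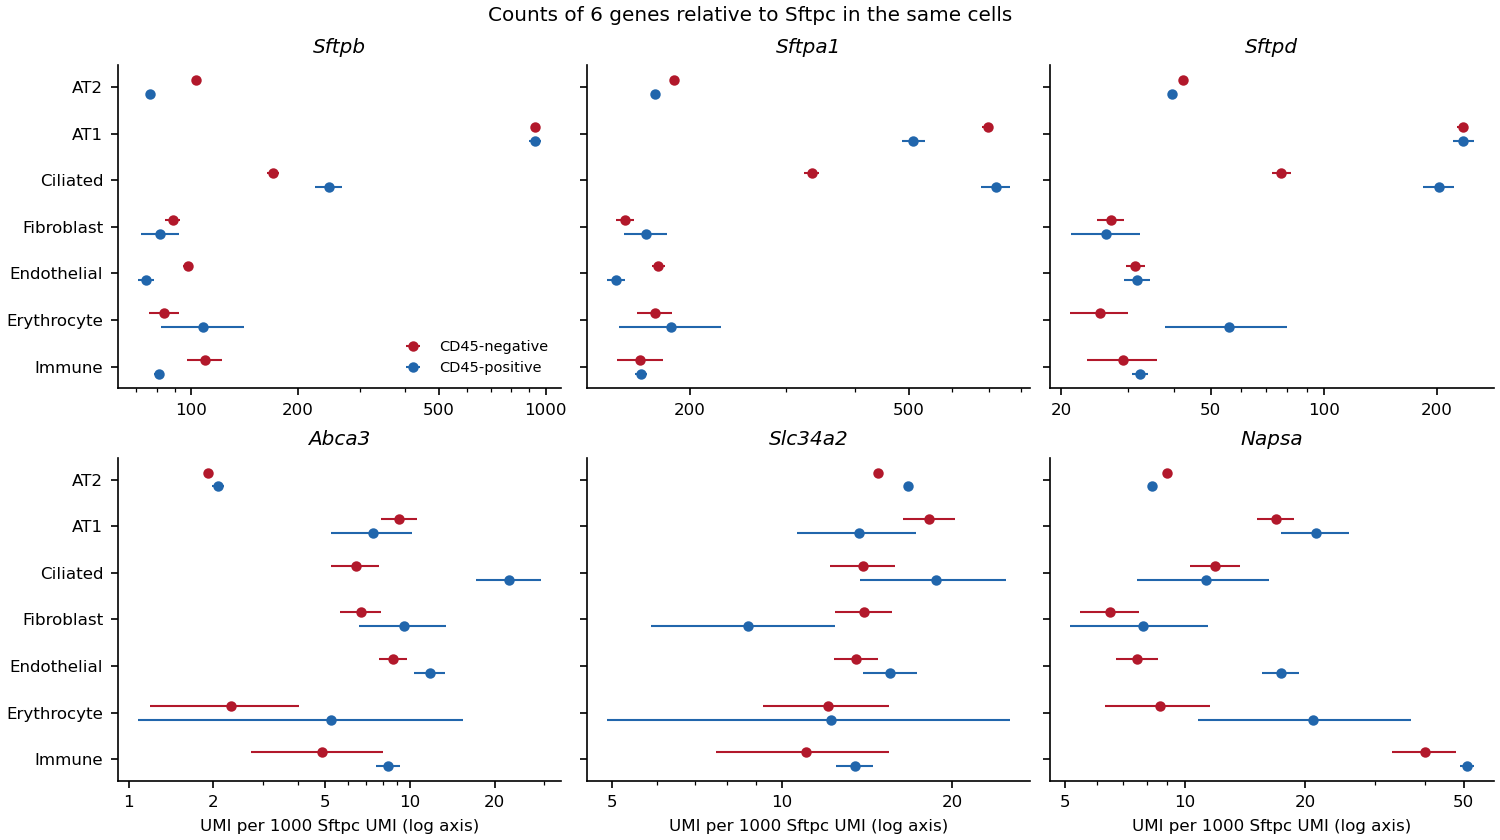
UMI of 6 genes per 1000 Sftpc UMI of the same cells (log axis) by deposited class in the CD45-negative (red) and CD45-positive (blue) library; bars are 95% counting intervals. Sftpb, Sftpa1 and Sftpd stand to the right of AT2 cells in the AT1 and Ciliated classes, Abca3 in most classes and Napsa in the Immune class, whereas Slc34a2 stays close to AT2 cells.

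Levels in the class deposited as AT1 and in the Ciliated class were then set against the Immune class of the same library, whose droplets were made together with theirs. Of the 8 genes of the CD45-negative library 6 reached 2-fold in the class deposited as AT1, as did 24.9% of all genes tested. The ratios were 10.6 (9.49 to 11.8) for Sftpb, 9.93 for Sftpd, 5.64 for Lamp3 and 5.29 for Sftpa1, against 1.24 for Sftpc. The Ciliated class had 7 of the 8 at least 2-fold above the Immune class, where 25.8% of genes were. Sftpd had the highest ratio there, 10.4 (8.38 to 13.01), followed by Sftpa1 at 8.04 and Sftpb at 6.11, and Napsa the lowest, 1.17 (0.930 to 1.48). In the CD45-positive library, against cells with T cell markers, the class deposited as AT1 again led with Sftpb (31.1-fold) and Sftpd (19.1-fold), 7 of 8 genes being at least 2-fold higher beside 18.3% of all genes. The Ciliated class led with Sftpd (12.9-fold) and Sftpa1 (8.87-fold), and 6 of the 7 genes tested were at least 2-fold higher beside 20.6% of all. Club cell markers are high in the Ciliated class; their part in these values was not tested.

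Napsa was the only one of the 8 that did not reach 2-fold in the Ciliated over the Immune class, and in the Immune class its level differed by cluster. Immune cells were grouped by expression without the 8 genes, and clusters were named by markers. Napsa stood at 309 CPM (260 to 365) in 140 Monocyte-like cells, led by Ifitm6 and F13a1, and at 237 CPM (185 to 297) in 73 Mature dendritic-like cells, led by Ccl22 and Fscn1. It stood at 185 CPM (169 to 202) in 606 cells named C1q macrophage-like and led by C1qa, C1qb and C1qc. That cluster was mixed: at a finer resolution, tried after the data had been seen, 217 of its cells were Conventional dendritic-like, with Napsa at 316 CPM (281 to 353), and the 380 that stayed C1q macrophage-like had 111 CPM (95.5 to 128). B cell-like cells, 1076 in number, had 168 CPM (155 to 182). Alveolar macrophage-like cells had 69.0 CPM and Plasma cell-like cells 55.1 CPM. The T cell-like cluster of 1177 cells had the lowest level, 20.5 CPM (16.1 to 25.6), from 76 UMI.

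Against the T cell-like cluster Napsa was thus 15.1-fold (11.4 to 20.2) higher in Monocyte-like, 11.6-fold in Mature dendritic-like, 9.03-fold in the macrophage-like and 8.23-fold in B cell-like cells. It was the only one of the 7 genes with enough UMI (Lamp3 had 20 in T cell-like cells) that was at least 2-fold higher in these clusters, where 9.11%, 8.96%, 12.8% and 4.19% of all genes were, in the same order. After thinning to 1000 UMI a Napsa UMI was found in 28.6% of Monocyte-like, 16.0% of C1q macrophage-like and 14.96% of B cell-like cells against 2.29% of T cell-like cells, at median depths of 2898.5, 4009 and 2950.0 against 2854 UMI. Sftpc varied little beside this, from 1280 to 2645 CPM, except in the Erythroid-like cluster at 6335 CPM. In that cluster 7 of the 8 genes were at least 2-fold above T cell-like cells, beside 9.33% of all genes. Its name does not hold for most of its 468 cells, since only 73 CD45-positive cells were Erythroid-like at the finer resolution. Beside globins it was led by Scgb1a1 and Pam, and it had a median of 1077.5 genes per cell against 518 in the Erythrocyte class. AT2 cells of the same library had 41.7 times (33.2 to 53.0) the Napsa level of T cell-like cells.

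**Figure D3:**
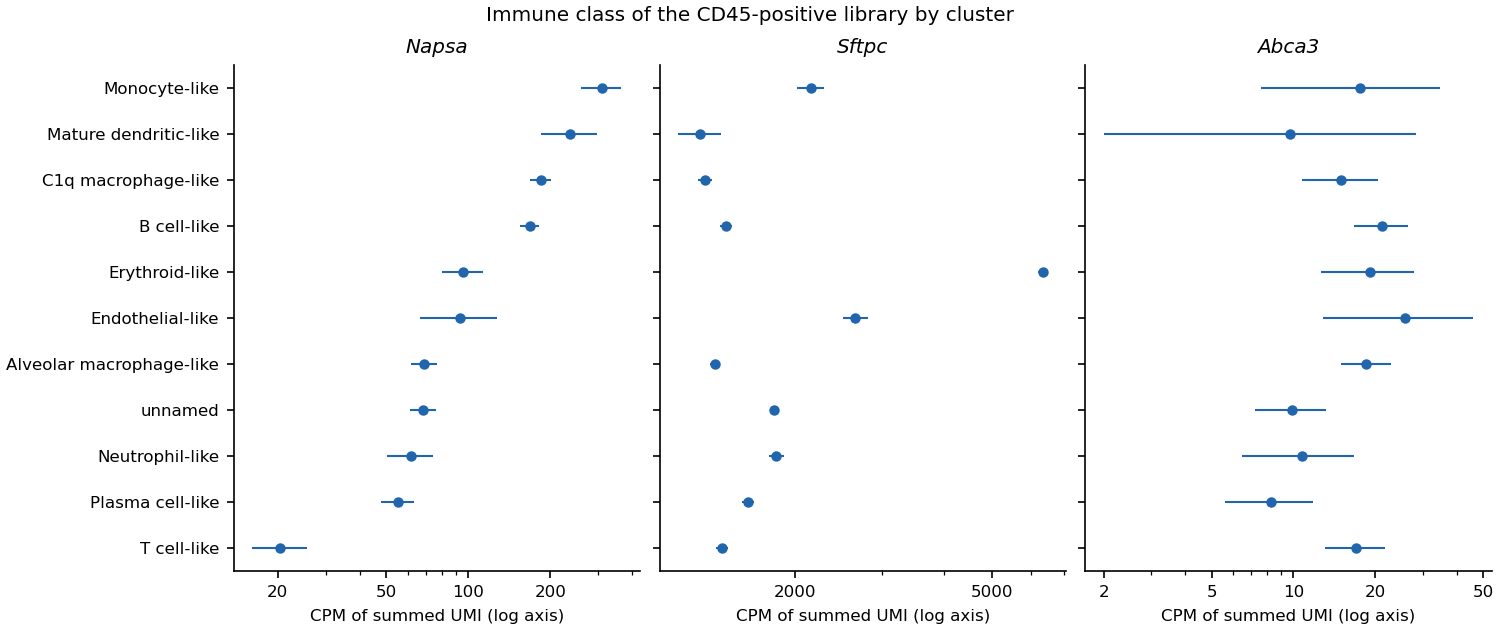
Level (CPM of summed UMI, log axis) of Napsa, Sftpc and Abca3 in the clusters of the Immune class, CD45-positive library; bars are 95% counting intervals. Napsa runs from 20.5 CPM in T cell-like to 309 CPM in Monocyte-like cells, an order that neither Sftpc nor Abca3 follows.

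Lamp3 did not mark the mouse Mature dendritic-like cells at this depth. It had 2 UMI in 73 such cells (6.48 CPM) against 202 UMI in the 7365 other cells of the Immune class (7.42 CPM), a ratio of 0.873 with an interval of 0.105 to 3.20. The upper bound leaves room for a level about 3.20 times that of the other immune cells. The same cells were led by Ccl22 and Fscn1, markers of mature dendritic cells that were used to name them.

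Between the libraries, AT2 cells differed little in these genes. All 8 were somewhat higher in CD45-negative than in CD45-positive AT2 cells, from 1.04-fold (1.02 to 1.07) for Slc34a2 to 1.60-fold (1.58 to 1.61) for Sftpb, and none reached 2-fold, while 1.9% of 11315 genes were at least 2-fold higher and 5.05% at least 2-fold lower. In log2 the median of the 8 was 0.34, against 0.05 over all genes. Without the sub-clusters led by leukocyte or endothelial genes Slc34a2 turned to a log2 ratio of -0.02 and the other 7 stayed higher. Leukocyte markers moved with the library: the 7 of them summed to 25.8 CPM in CD45-negative and 1204 CPM in CD45-positive AT2 cells. In the sub-cluster S0, described next, Sftpb still had a ratio of 1.31, while Sftpc and Slc34a2 both stood at 1.02. Over all cells, of which AT2 cells are a larger share in the CD45-negative library, all 8 reached 2-fold there, as did 19.1% of all genes.

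AT2 cells of both libraries were clustered together after the 8 genes and all pathway genes had been left out, which gave 8 sub-clusters, S0 to S7. Their comparison was chosen after the data had been seen, and genes that vary with the 8 were still in the clustering, so these values are descriptions. S0 was the largest in the CD45-negative library, with 644 and 269 cells in the CD45-negative and CD45-positive libraries, and was led by Il4i1, Pglyrp1 and Pigr. S4 held 10 CD45-negative and 692 CD45-positive cells, was led by Jchain, Cd52, S100a9 and S100a8, and made up 52.3% of the AT2 cells of the CD45-positive library, with leukocyte markers at 2137 CPM there. S5 (162 and 69 cells) was led by endothelial genes such as Cldn5 and Ramp2. No doublet caller was run here, and whether doublets had been removed before deposit is not stated. The part of doublets in S4 and S5 was not tested. In S4 of the CD45-positive library Sftpc still stood at 92418 CPM and Slc34a2 at 1573 CPM. The sub-clusters below, S3, S6, S1 and S2, are set against S0 of their own library.

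S3 had the highest Sftpc of all sub-clusters. It held 234 and 63 cells, led by Lyz1, Cbr2, Cyp2b10, Hc and Mme. Sftpc stood at 249282 CPM in S3 against 145616 in S0 of the CD45-negative library, and at 250241 against 142412 CPM in the CD45-positive one, so that Sftpc alone was 24.9% of the UMI counted in CD45-negative S3 cells. Abca3 stood at 478 against 311 CPM in the CD45-negative library, Lamp3 at 1063 against 739 and Slc34a2 at 3542 against 2637. None of the 8 was 2-fold higher or lower, beside 2.29% of genes that were higher and 10.8% that were lower. Their median log2 ratio was 0.45, against -0.27 over all genes, and 0.38 against -0.28 in the CD45-positive library. Sftpb, Sftpa1 and Sftpd were not higher, with log2 ratios of -0.24, -0.10 and -0.10. Of 13 genes of phospholipid synthesis, Scd1 (2.80-fold), a fatty acid desaturase, and Fasn (2.21-fold), the fatty acid synthase, were at least 2-fold higher in S3.

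S6 had the lowest Sftpc, and all 8 genes lay 2-fold or more below S0 in the CD45-negative library, where 4.4% of 9271 genes did. It held 184 and 141 cells, led by Cldn4, Krtap17-1, Prkcdbp, Sec14l3 and Akap5. Sftpc stood at 12397 CPM in S6 against 145616 in S0 of the CD45-negative library, and at 23025.5 against 142412 CPM in the CD45-positive one. Slc34a2 stood at 271 against 2637 CPM, and Lamp3 at 121 against 739 CPM, in the CD45-negative library. The log2 ratios were -3.55 for Sftpc, -3.28 for Slc34a2, -2.61 for Lamp3, -2.08 for Sftpa1 and -2.003 for Abca3, and less for Sftpb (-1.25), Napsa (-1.21) and Sftpd (-1.09). The median was -2.04, against 0.40 over all genes. The CD45-positive library had 5 of 8 that far below S0 beside 3.41% of genes, with a median of -1.31 against 0.37. With the mean of per-cell levels 6 of the 8 were 2-fold lower in the CD45-negative library, Sftpd and Napsa falling short of it at log2 ratios of -0.90 and -0.93. The 8 AT1 markers were at least 2-fold higher in S6 in both libraries and summed to 11665.5 CPM in the CD45-negative one, against 2945 CPM in S0; they had entered the clustering.

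S1, with 97 and 21 cells led by Gkn2, Ube2c, Cdk1, Hist1h2ap and Birc5, held the cells with cycling genes. Sftpc stood at 45339 CPM in S1 against 145616 in S0 of the CD45-negative library, and at 43559 against 142412 CPM in the CD45-positive one. In these libraries 5 and 3 of the 8 genes lay 2-fold or more below S0, beside 4.71% and 7.9% of all genes. The summed Sftpb level was 19854 CPM in S1 against 15395 in S0 of the CD45-negative library, and 6685 against 11781 CPM in the CD45-positive one. A minority of cells carried the CD45-negative sum: thinned to 1000 UMI, S1 cells had a median of 10 Sftpb UMI against 14 in S0, but 38.4 against 23 at the 90th percentile and at most 90 against 55. In the CD45-positive library the medians were 6 and 11, with 21 cells in S1, so the typical S1 cell had less Sftpb than the typical S0 cell in both libraries.

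S2 differed from S0 in the membrane genes far more than in Sftpc. It held 329 and 65 cells and no cell type name, led by Cox6a2, Gm8730, Rps26-ps1, Dap and Rps26. Its cells had few mitochondrial transcripts, with a median of 0.0974% against 2.85% in S0 of the CD45-negative library and 0.405% against 4.44% in the CD45-positive one, and fewer genes per cell, 1551 against 2454.5; the part of cell quality in these levels was not tested. Sftpc stood at 115799 CPM in S2 against 145616 in S0 of the CD45-negative library, and at 112131 against 142412 CPM in the CD45-positive one. Slc34a2 was 17.6-fold lower, at 149.6 against 2637 CPM, and Abca3 15.8-fold lower, at 19.7 (from 51 UMI) against 311 CPM, in the CD45-negative library. After thinning, an Abca3 UMI was found in 0.608% of S2 and 30.4% of S0 cells, at median depths of 6600 and 9714.5 UMI. The Immune class had 1.85% (108 cells, median depth 7834.5 UMI). Abca3 relative to Sftpc was also higher in the Immune class than in AT2 cells, and what part of its share was free RNA was not tested. Whether S2 cells express Abca3 was therefore not decided. Of the 8 genes 6 lay 2-fold or more below S0 in CD45-negative and 5 in CD45-positive cells, but 45.2% and 44.3% of all genes were too, so the count says little about these genes. Their median log2 ratio was -1.36 against -0.78 over all genes in the CD45-negative library. The 8 genes differed among themselves in S2, from -0.33 for Sftpc and -0.55 for Sftpa1 to -3.98 for Abca3 and -4.14 for Slc34a2, with -0.35, -0.79, -3.63 and -3.11 for the same genes in the CD45-positive library.

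**Figure D4:**
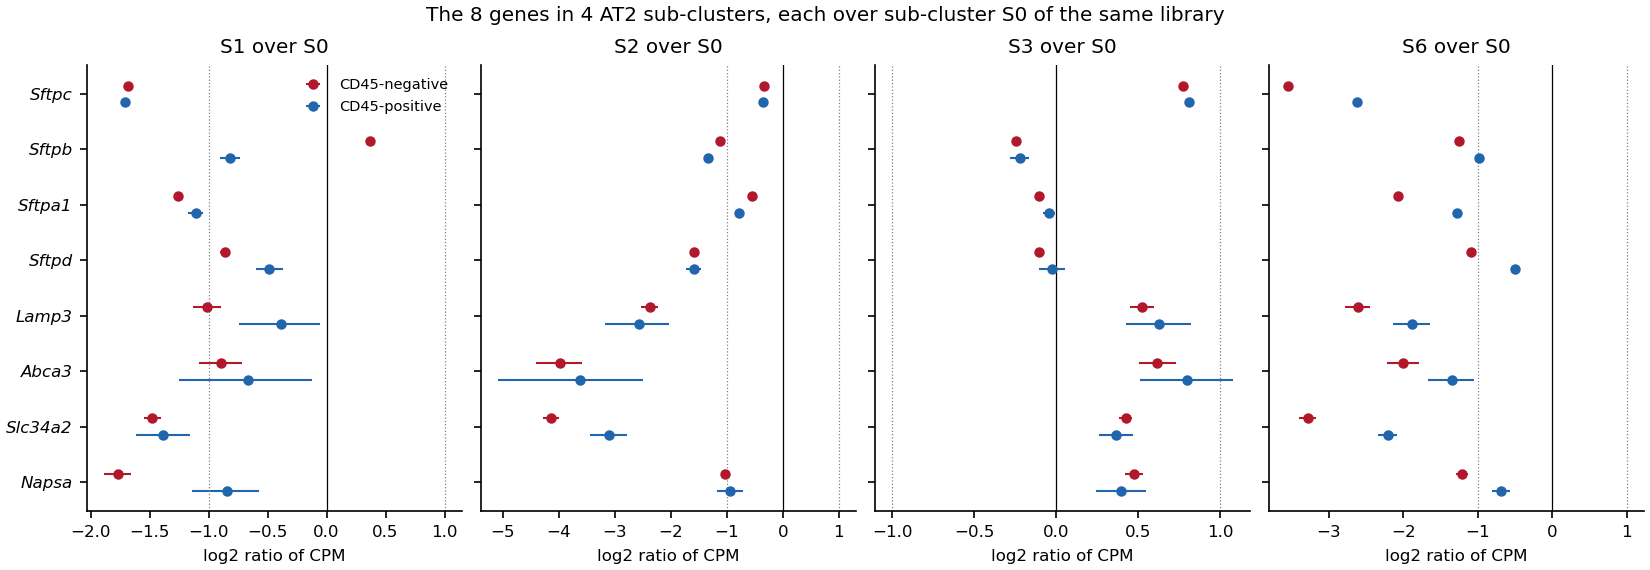
Log2 ratio of the CPM of each gene in sub-clusters S1, S2, S3 and S6 over S0 of the same library (red CD45-negative, blue CD45-positive); bars are 95% counting intervals, the solid line is no difference and dotted lines are 2-fold. Sftpc is highest in S3 and lowest in S6, and in S2 it stays near S0 while Abca3 and Slc34a2 lie at -3.98 and -4.14 in the CD45-negative library.

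The other genes of the pathway were counted from lists chosen with earlier results known. Against all other classes of the CD45-negative library, 4 of 17 tested genes of surfactant processing and lamellar body formation were at least 2-fold higher in AT2 cells and 2 lower, beside 6.81% and 27.8% of all genes, with a median log2 ratio of -0.11 against -0.52 over all genes. Ctsh, a cathepsin that trims pro-SP-B and pro-SP-C, stood at 1722 CPM against 330.3 (5.21-fold), whereas Lamp1, a general lysosomal membrane protein, stood at 525 against 651 CPM and, in the CD45-positive library, at 384 against 290.2 CPM. Of 12 transcription factors 5 were higher and 2 lower, with a median of 0.46. Nkx2-1 had 286 CPM in AT2 cells against 45.5 in the rest and Cebpa 206 against 28.5, while Cebpb (95.3 against 237 CPM) and Nfib (109 against 304 CPM) were lower. Among CD45-positive cells these ratios fell short of 2-fold, at 0.509 for Cebpb and 0.917 for Nfib. Of 13 tested genes of phospholipid synthesis 5 were higher and 0 lower, with a median of 0.72. Scd1 stood at 1802 CPM against 123, Fasn at 223 against 19.8, and Lpcat1, which remodels surfactant phosphatidylcholine, at 474 against 54.4. Among CD45-positive cells the processing list had 6 of 17 genes higher and 1 lower, the transcription factors 8 of 12 and 0, and phospholipid synthesis 6 of 13 and 0, beside 10.2% and 21.9% of all genes.

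In S2 of the CD45-negative library 10 of 13 genes of phospholipid synthesis, 9 of 12 transcription factors and 8 of 15 processing genes were at least 2-fold below S0, beside 45.2% of all genes. In S6 4 of 13, 2 of 12 and 1 of 15 were lower, beside 4.4%. Nkx2-1, which activates several surfactant genes, was 1.53-fold higher in S6 than in S0 of the CD45-negative library, Cebpa stood at a ratio of 0.341 and Ctsh at 1.52, while Fasn stood at 0.168 and Scd1 at 0.360. These ratios are unscaled. The median log2 ratio over all genes was itself 0.40 there, and median-of-ratios scaling lowered the log2 ratios of the 8 genes by 0.49. Much of the rise of Nkx2-1 and Ctsh is therefore shared by most genes.

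Single AT2 cells differed widely in Sftpc. Thinned to 1000 UMI, AT2 cells of the CD45-negative library had a median of 130 Sftpc UMI, 7 at the 10th and 269 at the 90th percentile, and at most 421. CD45-positive AT2 cells had a median of 77, with 3 and 217 at these percentiles. Counting error alone gives a variance about equal to the mean, and the variance was 67.0 times the mean for Sftpc in the CD45-negative and 70.3 times in the CD45-positive library. For the other genes the ratio was 10.1 for Sftpa1, 6.82 for Sftpb, 3.57 for Sftpd, 2.83 for Slc34a2, 2.07 for Napsa, 1.47 for Lamp3 and 1.16 for Abca3 in the CD45-negative library. These ratios rise with the level of a gene. Relative to the mean, the SD was 0.707 for Sftpc, 0.67 for Sftpa1 and 2.13 for Abca3, which had no UMI in 79.0% of thinned cells. This measure includes counting error, which was most of it for Abca3, whose variance was 1.16 times its mean.

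The sub-clusters covered most of this range. The Sftpc median per 1000 UMI in the CD45-negative library was 263.5 in S3, 160.5 in S0, 110 in S2, 33 in S1 and 4 in S6. Endothelial cells had a median of 3, with 6 at the 90th percentile, so the median S6 cell lay within the range of cells that should lack the gene.

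**Figure D5:**
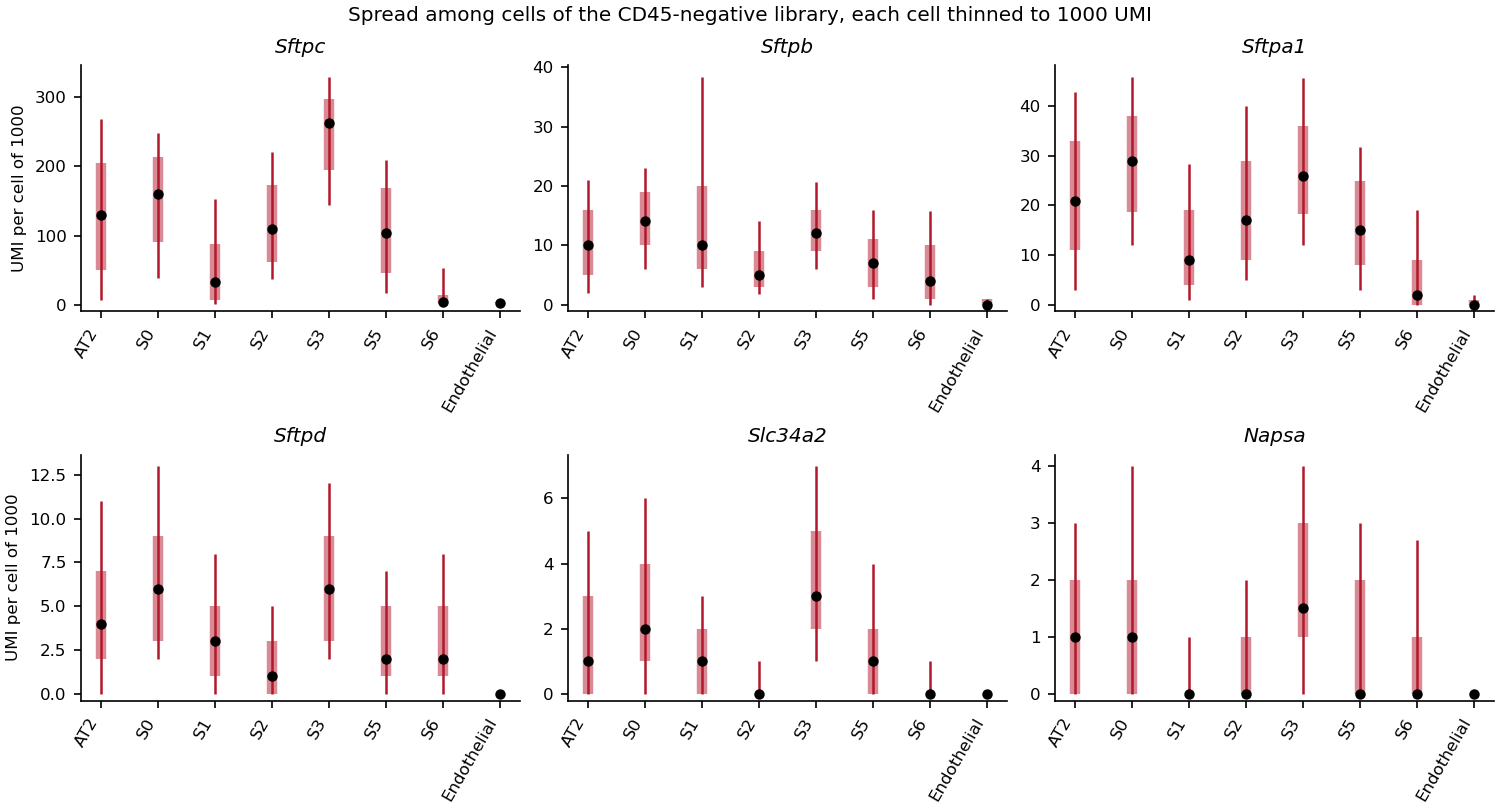
UMI of 6 genes per cell thinned to 1000 UMI in all AT2 cells, 6 AT2 sub-clusters and the Endothelial class, CD45-negative library; points are medians, thick bars the middle 50% and thin lines the 10th to 90th percentile of cells. Sftpc runs from a median of 263.5 in S3 to 4 in S6, close to the Endothelial median of 3.

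AT2 cells whose thinned Sftpc did not exceed the 95th percentile of Endothelial cells (8 UMI among CD45-negative and 9 among CD45-positive cells) were looked at by themselves, with a threshold set after the data had been seen. They were 184 of 1677 AT2 cells (10.97%, interval 9.52 to 12.6) in the CD45-negative and 203 of 1324 (15.3%, 13.4 to 17.4) in the CD45-positive library, with 89 and 73 cells close to the threshold. Of S6, 67.4% of CD45-negative and 66.7% of CD45-positive cells were among them, against 2.33% of S0 in the CD45-negative library. S6 gave 124 of the 184 CD45-negative cells and S1 gave 30. Of the 203 CD45-positive cells 94 were from S6 and 75 from S4, the sub-cluster led by leukocyte genes. The levels below pool all low-Sftpc cells of a library and were not split by sub-cluster. The depth of the low-Sftpc cells was not low, with a median of 9640.5 UMI against 8061 in the other AT2 cells of the CD45-negative library. The other surfactant genes were still counted in them. Sftpb stood at 9864 CPM in these cells against 13019 in the other AT2 cells and 369 in the Endothelial class, and Sftpd at 3166 against 5451 and 119 CPM. Sftpa1 stood at 8038 against 25350.0 and 662 CPM, and Slc34a2 at 355 against 2043 and 51.0 CPM. Over Endothelial cells Sftpb was 26.7-fold (25.8 to 27.7) and Sftpd 26.7-fold higher in them, Napsa 13.3-fold, Sftpa1 12.1-fold and Abca3 2.06-fold (1.71 to 2.48). Among CD45-positive cells these ratios were 23.5 for Sftpb, 36.1 for Sftpd, 9.77 for Napsa, 16.6 for Sftpa1 and 2.75 for Abca3. In both libraries, then, cells labelled AT2 with Sftpc at the endothelial level had Sftpb and Sftpd far above it.

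Across AT2 cells the 8 genes varied together, which is a description since cells of a library share its depth and free RNA. Over 1677 cells of the CD45-negative library Pearson's r between the 28 pairs of genes, on log2 UMI per 10000 UMI of other genes with 1 added, ran from 0.36 to 0.82 with a median of 0.55. Within S0 the range was 0.09 to 0.71 with a median of 0.33. Lamp3 and Slc34a2 were the closest pair (0.82, and 0.55 within S0), followed by Sftpc with Sftpa1 and Abca3 with Slc34a2 (both 0.76). This order was not that of CD45-positive AT2 cells, where Sftpa1 with Sftpc and with Sftpb came first (both 0.74) and Lamp3 with Slc34a2 had 0.67. Within S0 of the CD45-negative library the neighbours Sftpa1 and Sftpd were the closest pair, at 0.71, and Sftpd was hardly related to Abca3 (0.09) or Lamp3 (0.13). The genes whose level went most with the sum of the 8 over all AT2 cells of the CD45-negative library were Cxcl15 (0.83), Lyz2 (0.82), Chil1 (0.77), Lcn2 (0.71) and Sfta2 (0.62). Those that went most against it were S100a6 (-0.56), Cldn4 (-0.51), S100a14 (-0.50), Krt7 (-0.49) and Prkcdbp (-0.48).

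Over the 14 class-by-library groups, which share libraries and are dominated by the pair of AT2 groups, the genes closest in pattern were Lcn2 (0.99), Mlc1 and Tspan11 for Sftpc, Aqp5 (0.99), H2-Q2 and Muc1 for Sftpb, and Cxcl15 (0.98), Sfta2 and Pla2g1b for Sftpa1. They were Muc1 (0.98), Nkx2-1 and Aqp5 for Sftpd, Cxcl15 (0.98), Matn4 and Slc26a4 for Lamp3, Wnk4, Fgfr2 and Atp11a (0.96 each) for Abca3, and Tspan11, Lcn2 and Cxcl15 for Slc34a2. Napsa had the least close companions, Ly6i (0.94), Dram1 (0.91) and Sgpp2 (0.89), among 9952 genes compared by Pearson's r.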

How the data were processed

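Droplet 3' libraries of CD45-negative and CD45-positive cells were measured. The authors deposited raw UMI counts, a single genes-by-cells table holding both libraries, with a second table giving the library and class of each cell. Per the series design text, Cell Ranger 1.1.0 aligned reads of 98 base pairs to mm10 transcripts and merged them by UMI. Filters on cells, doublet removal and the making of the classes are not stated there. The deposited totals per cell matched the counts in all 15389 cells.

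UMI were summed per class and library and divided by the group's total (CPM). Depth was 4646 to 121823 UMI per cell in the CD45-negative and 2204 to 51038 in the CD45-positive library. Ratios were called at 2-fold among genes with at least 50 UMI in the 2 groups together; they were tested on simulated data. Shares used cells thinned to 1000 UMI, and no cell was shallower than that. All cells were kept and no doublet caller was run. AT2 and Immune cells were clustered (2000 variable genes, 30 components, 15 neighbours, Leiden at resolution 0.5 and 1) without the 8 genes and the pathway lists; a cluster took a name with at least 3 markers among its top 50 genes by fold, unless mitochondrial genes led it or, for Immune cells, another type also had 3 there. Beside the 8 genes, the genes named were the 3 closest in pattern to each (at least 500 UMI), the 5 most and 5 least correlated with their sum, up to 4 per pathway list with the most UMI in AT2 cells, and leading genes of clusters. The members, lists and markers were chosen with earlier results of these data known. Alternatives were per-cell means, thinning, cell filters, other totals and scalings, background subtraction, other resolutions and left-out sub-clusters. Scanpy 1.11.5, igraph 0.11.9 and scikit-learn 1.9.0 were run for clustering, scipy 1.17.1 for intervals, and pandas 2.3.3, numpy 2.4.6 and matplotlib 3.10.9 under Python 3.11.15.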

Additional observations from a re-analysis of the deposited data

How the results depend on the processing

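No paired analysis was possible because each fraction has 1 library. The summed share of the 8 genes in UMI of CD45-negative AT2 cells, 16.6%, was 17.6% as a mean of per-cell percentages, 16.7% in cells with under 10% mitochondrial UMI and 3000 UMI or more, 16.8% without the AT2 sub-clusters led by leukocyte or endothelial genes, and 16.9% without S2, an alternative added after the data had been seen. Under every alternative run, 8 of 8 genes were at least 2-fold higher in AT2 cells than in the other classes of either library, 0 were so between the libraries' AT2 cells, and 7 were so in the Ciliated class over the Immune class. Leaving out the 57 shared barcodes, also added later, changed none of these counts. Napsa in the Ciliated over the Immune class had a log2 ratio of 0.23, which was -0.13 with per-cell means and -0.85 after thinning, so no direction is given for it. The count of genes lower in S2 stayed at 6; that for S6 was 8, 6 with per-cell means and 7 after thinning. Median-of-ratios scaling shifted the ratio of AT2 cells to the other classes by 0.43 (log2) in the CD45-negative library and 0.17 in the other, that of Ciliated to Immune by 0.30, S2 to S0 by 0.21 and S6 to S0 by 0.49, and changed no direction among the 8 genes. The number of genes with a variance of at least 2 times the mean was 6, 7 at 3000 UMI and 5 in the CD45-positive library. The Lamp3 log2 ratio of -0.20 in Mature dendritic-like cells ran to -0.55 under the cell filter; thinned cells of that cluster had 0 Lamp3 UMI and gave no value. As background the Immune class or, in the CD45-positive library, B cell-like cells were subtracted. The log2 ratios of AT2 cells over the other classes then ran from 3.41 to 6.18 in the CD45-negative library, Napsa aside. In the CD45-positive library they ran from 5.70 to 7.69, Abca3 and Napsa aside. Napsa had 12.83 in the CD45-negative library, and Abca3 11.32 and Napsa 13.16 in the CD45-positive one. A floor of 3 counts set these last 3, since the subtracted level was above that of the other classes. They are not bounds on a ratio, and Napsa was itself raised in the Immune class and in B cell-like cells. Single levels moved past their counting interval in 84 of 91 cases with background subtracted, where levels that fell to 0 or below were left out. They did so in 78 of 112 after thinning, 73 of 112 with median-of-ratios scaling and 54 of 112 with per-cell means. Ratios of the 8 genes also left their counting interval in 20 of 24 cases with background subtracted and 40 of 48 with median-of-ratios scaling. The count was 37 of 48 after thinning, 37 of 48 with per-cell means, 35 of 48 with the 8 genes left out of the total and 13 of 32 under the cell filter.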

Other observations

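Macrophages take up and break down surfactant. Of 10 genes of that path, among them Csf2ra, Pparg, Abcg1 and Marco, 10 were at least 2-fold higher in Alveolar macrophage-like than in T cell-like cells of the CD45-positive library, beside 19.1% of all genes, with a median log2 ratio of 4.79 against 0.07. In CD45-negative AT2 cells 0 of 10 were at least 2-fold higher and 7 at least 2-fold lower than in all other classes, beside 6.81% and 27.8% of all genes. Lpl, a lipoprotein lipase, was among the 7, with 16.6 CPM in AT2 cells against 164. Cd36, a fatty acid receptor, was not, with 536 against 764 CPM in this library and 469 against 303 CPM in the CD45-positive one. Markers of that cluster include genes of this list, so its count there is a description.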
